A study of Mus musculus with 9 samples.

Results

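The heat shock proteins and their DnaJ partners were described in the epididymis of C57BL/6 wild-type mice. The members were all rows of the UMI table whose gene symbol starts with Hspa, Hspb, Hsp90, Hspd, Hspe, Hsph, Dnaja, Dnajb or Dnajc. This gave 75 of the 32195 genes after 10 pseudogene rows had been left out, and together they held 1.17% of the UMIs of the kept cells. A UMI (unique molecular identifier) marks one captured RNA molecule. The table holds single cells of the caput (the segment nearest the testis), corpus and cauda (the segment where sperm are stored). Each segment gave 1 library at postnatal day 42 (P42) and 2 libraries at P56 (replicates 1 and 2). No mouse was treated. Each of the 3 pools joined 5 mice, the 3 segments of a pool came from the same mice, and sperm were not depleted. The tissue was digested at 37 °C for 15 min before capture.

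The 9 libraries held 23114756 to 50655384 UMIs, and 42087 of 44869 cells were kept, with a median of 3088.5 to 7644 UMIs per cell and library. In total, 277 kept cells had a barcode that was also found in another library. Cells were gated on marker genes, none of which is a member, into 17458 principal cells (the secreting and absorbing cells of the duct lining), basal, clear/narrow, ciliated, fibroblast, myoid, endothelial, macrophage/monocyte, halo/T and sperm cells and erythrocytes. Cells passing 2 or more panels (2162) were left out of the types, as were 7427 cells that met no gate (17.6% of kept cells). Doublets were not otherwise removed. Every marker of the other panels was highest in its own type, but only 7 of 16 principal markers were. RNA of the principal panel reached 32.7% to 87.8% of its level in principal cells of the same libraries in basal, clear/narrow, macrophage/monocyte, halo/T, endothelial and fibroblast cells. The P42 cauda library stood apart, with 475 principal cells and a summed fibroblast panel of 45080 CPM over all its cells (UMIs of a gene scaled to a total of 1000000), against 470.2 to 8370 CPM in the other 8 libraries. In its principal cells the same panel summed to 6621 CPM, against 185 to 1041 CPM elsewhere.

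HSP70 chaperones hold unfolded stretches of other proteins and release them in cycles driven by ATP. J proteins (the Dnaj genes) bring them their clients and start the ATP step, and the HSP110 relatives and Hspbp1 reset the cycle by exchanging the nucleotide. HSP90 works later on folded or nearly folded clients, small HSPs hold clients without ATP, and the endoplasmic reticulum (ER) and mitochondria keep chaperone sets of their own. Cytosolic stress genes of this group are classically driven by heat shock factor 1 through heat shock elements, and ER members by the unfolded protein response through ER stress elements. The epididymal duct lining makes and secretes large amounts of protein that sperm meet on their way.

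Promoters of 60 of the 75 members were present in the table of RefSeq promoters used here (GRCm38.p6). The others, among them Hspa8, Hspa9, Hspa13, Hsp90aa1 and Hsp90ab1, were not searched. The 250 bases before each start were searched on both strands for a heat shock element, taken as the units GAA, TTC and GAA or TTC, GAA and TTC with 2 bases between units, and for an ER stress element, taken as CCAAT and CCACG with 9 bases between them. The heat shock element was found in 3 of 60 members (Dnajb6, Hspd1 and Hspe1) and in 139 of all 27025 genes with a promoter (0.514%). None of the 7 cytosolic HSP70, 3 HSP110 and 6 small HSP genes with a promoter had a match. Only exact matches were counted, so the lack of a match does not show that a gene has no such element. The ER stress element was found in 3 of 60 members (Hspa5, Hsp90b1 and Dnajc3), which were 3 of 8 ER members with a promoter, and in 35 of 27025 genes (0.130%). The stretches are shown because the 3 ER genes share these letters and differed in how they varied along the duct, and because the head-to-head genes Hspd1 and Hspe1 share 1 stretch, which lies inside the annotated Hspd1 gene and upstream of Hspe1. Capitals mark the matched letters, and overlapping matches are joined. Dnajb6 lies on the plus strand (chr5:29735832-29735884), Hspd1 on the minus strand (chr1:55088039-55088096), Hspa5 on the plus strand (chr2:34772005-34772063), Dnajc3 on the plus strand (chr14:118937807-118937865) and Hsp90b1, with 2 matches, on the minus strand (chr10:86705513-86705676).
Dnajb6: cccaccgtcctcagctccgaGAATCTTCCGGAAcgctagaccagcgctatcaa
Hspd1: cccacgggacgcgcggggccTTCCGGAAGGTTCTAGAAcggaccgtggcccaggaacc
Hspa5: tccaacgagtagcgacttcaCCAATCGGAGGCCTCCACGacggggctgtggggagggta
Dnajc3: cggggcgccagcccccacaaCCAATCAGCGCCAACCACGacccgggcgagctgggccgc
Hsp90b1: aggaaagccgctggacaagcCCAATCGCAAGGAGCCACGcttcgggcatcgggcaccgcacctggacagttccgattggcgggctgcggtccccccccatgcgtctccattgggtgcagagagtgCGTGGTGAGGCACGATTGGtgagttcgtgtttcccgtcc

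The question put first was how the members differed between segments within principal cells. UMIs were summed over the principal cells of each library and tested with edgeR's quasi-likelihood test, blocked by pool of mice, with p-values adjusted over all genes tested (Benjamini-Hochberg). Of the 75 members, 67 had enough UMIs to be tested. From caput to cauda 12 members were higher and 14 lower, when 42.3% of all genes passed the same test (20.1% higher and 22.2% lower). From caput to corpus 16 were higher and 14 lower (40.7% of all genes, 20.2% higher and 20.4% lower), and between corpus and cauda 3 were higher and 7 lower in the cauda (20.7%, 9.11% and 11.5%). These 26, 30 and 10 of 67 members were near the shares of all genes. Without the P42 cauda library the counts were 18 higher and 17 lower (49.1% of all genes), 21 and 22 (51.2%), and 12 and 10 (31.2%). Leaving out the P56 replicate 1 pool left 11, 13 and 2 members called (23.3%, 23.2% and 6.76% of all genes), leaving out P56 replicate 2 left 15, 13 and 1 (26.3%, 25.0% and 8.82%), and leaving out P42 gave 39, 43 and 24 (55.0%, 52.6% and 36.5%). Among the members that passed from caput to corpus and to cauda whichever pool was left out were Hspb8, Hspa1b, Dnajb1, Dnajb4, Dnajc2, Dnajc3 and Hspa13. The members' median log2 difference was -0.03 from caput to cauda, beside -0.02 over all genes, and -0.13 from caput to corpus, beside 0.02. The members therefore did not move as 1 group, and the named genes below went both ways. With the normalisation factors (TMM) set to 1, 11 were higher and 22 lower from caput to cauda (2619 and 4440 of all genes), and 15 higher and 18 lower from caput to corpus (3064 and 3485).

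**Figure D1:**
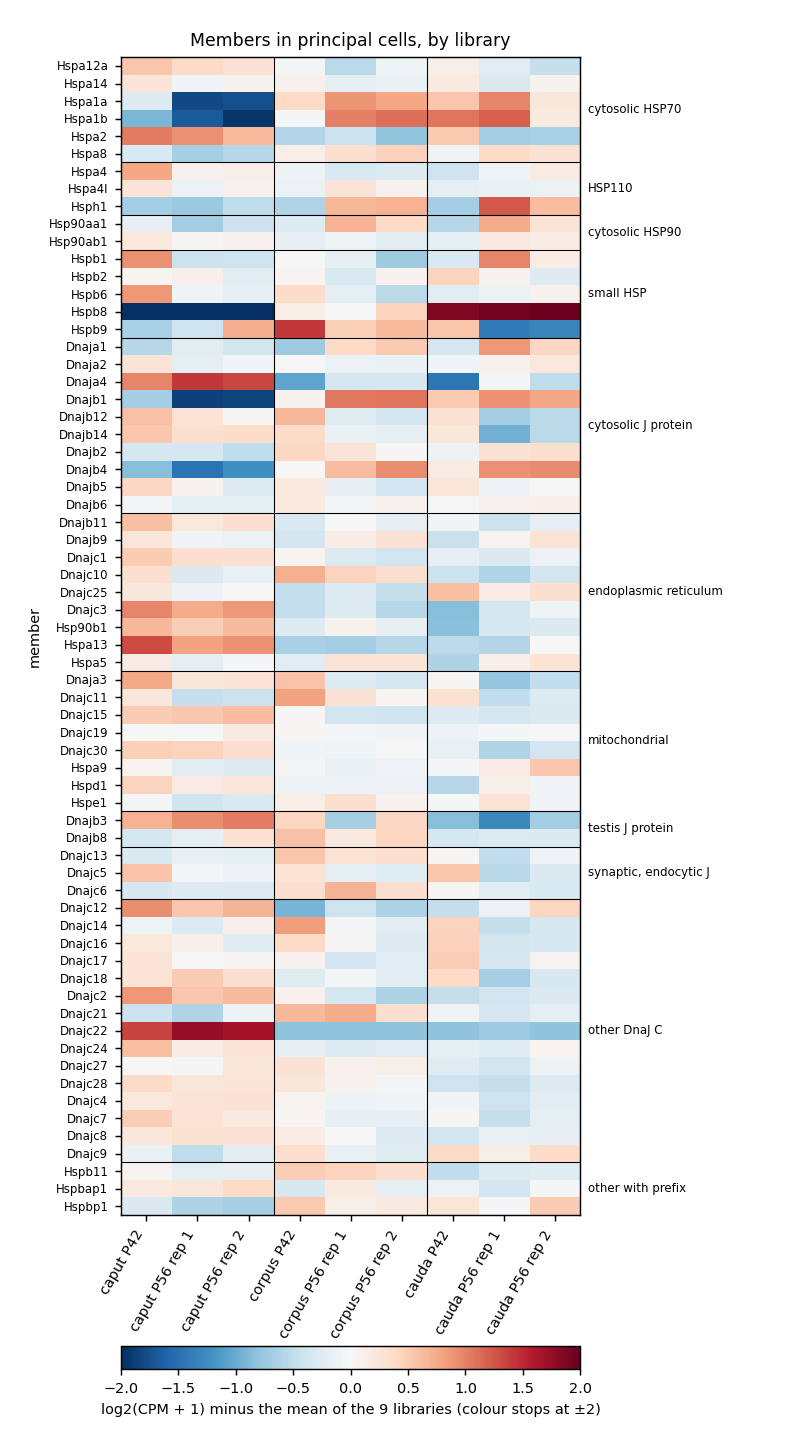
Heat map of 66 of the 67 members tested in principal cells. Columns are the 9 libraries, rows are members grouped by role, and colour is log2(CPM + 1) minus the mean of the 9 libraries; Hspb8, Hspa1b, Dnajb1 and Dnajb4 change from blue in the caput to red in the corpus or cauda, and Dnajc3 and Hspa13 from red to blue.

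Hspb8, a small HSP known to work with Bag3 in clearing misfolded proteins, had the largest differences from the caput among the called members with at least 10 CPM in a segment. It lies on the minus strand at chr5:116408491-116422864. Its level in principal cells was 2.92 CPM at P42 and 2.80 and 2.71 CPM at P56 in the caput, 16.8, 15.5 and 21.2 CPM in the corpus, and 58.2, 61.2 and 63.0 CPM in the cauda. The segments did not overlap, and every pool rose at both steps. The means were 2.81 ± 0.106, 17.9 ± 2.98 and 60.8 ± 2.40 CPM (SD, n = 3 libraries each). The fitted log2 difference was 2.72 (SE 0.20, adjusted p = 2.81e-06) from caput to corpus, 4.61 (SE 0.20, adjusted p = 1.38e-07) from caput to cauda and 1.89 (SE 0.17, adjusted p = 5.85e-05) from corpus to cauda. The last 2 correspond to 24.4-fold and 3.71-fold. Of the 5 small HSPs tested, Hspb8 was the only one called from caput to corpus or cauda in this fit.

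The stress-inducible pair Hspa1a and Hspa1b also rose. They lie 10120 bases apart (chr17:34969359-34972156 and chr17:34956429-34959238), and because their transcripts are nearly identical the split of reads between them is uncertain. Hspa1b stood at 18.9, 10.7 and 8.78 CPM in the caput (P42, then P56 replicates 1 and 2), 35.3, 74.4 and 79.1 CPM in the corpus, and 77.8, 85.2 and 42.1 CPM in the cauda. Hspa1a stood at 67.4, 22.5 and 23.2 CPM in the caput, 107, 151 and 139.7 CPM in the corpus, and 119.9, 161 and 95.2 CPM in the cauda. For both genes every caput library was below every corpus and cauda library, while corpus and cauda overlapped. Hspa1b rose by a log2 difference of 2.41 (SE 0.42, adjusted p = 0.0012) to the corpus and 2.56 (SE 0.42, adjusted p = 0.00078) to the cauda. Hspa1a rose by 1.97 (adjusted p = 0.00429) and 1.98 (adjusted p = 0.00424). Its cauda call was lost without P56 replicate 1 (1.43, adjusted p = 0.0627) and its corpus call without P56 replicate 2 (1.54, adjusted p = 0.0584).

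Their J protein partner Dnajb1, also heat inducible, followed the same order. It stood at 54.6, 23.5 and 23.9 CPM in the caput, 92.9, 184 and 187 CPM in the corpus and 127, 166 and 151 CPM in the cauda, with no overlap between the caput and the other segments. The log2 difference was 2.23 (SE 0.43, adjusted p = 0.00215) to the corpus and 2.29 (SE 0.43, adjusted p = 0.00175) to the cauda. Dnajb4, another cytosolic J protein, stood at 22.3, 14.1 and 16.9 CPM in the caput, 40.8, 63.9 and 79.7 CPM in the corpus and 46.0, 78.4 and 80.1 CPM in the cauda (log2 difference 1.79, adjusted p = 0.00129, and 2.08, adjusted p = 0.000547). In the caput the P42 library was the highest of the 3 for Dnajb1, Dnajb4, Hspa1a and Hspa1b, and in the corpus it was the lowest.

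Other members of the cytosolic cycle were called as well. Hspa8, the main cytosolic HSP70 of unstressed cells, stood at 572, 448 and 479.7 CPM in the caput, 781, 889.9 and 973 CPM in the corpus and 672, 939.7 and 869.9 CPM in the cauda. It rose by 0.84 (SE 0.24, adjusted p = 0.0184) and 0.87 (SE 0.24, adjusted p = 0.0159), with all caput libraries below the rest. Both Hspa8 calls were lost without either P56 pool (0.64 to 0.78, adjusted p from 0.129 to 0.203). The nucleotide exchange factor Hspbp1 rose by 0.91 (adjusted p = 0.00375) to the corpus and 1.05 (adjusted p = 0.00184) to the cauda, and the J protein Dnajb2 by 0.70 (adjusted p = 0.0139) and 0.82 (adjusted p = 0.00656). The corpus call of Hspbp1 was lost without P56 replicate 1 (0.96, adjusted p = 0.051) and its cauda call without P56 replicate 2 (0.77, adjusted p = 0.0555). Dnaja1, a farnesylated J protein partner of Hspa8, was 258, 329.8 and 297 CPM in the caput, 234, 504 and 552 CPM in the corpus and 304, 699.6 and 513 CPM in the cauda. It passed the test to the cauda (0.84, SE 0.26, adjusted p = 0.0265) and not to the corpus (0.49, adjusted p = 0.171). The HSP110 gene Hsph1 was 12.1, 11.5 and 13.8 CPM in the caput, 12.8, 32.3 and 32.9 CPM in the corpus and 12.2, 48.3 and 31.1 CPM in the cauda, so the P42 libraries lay together in all 3 segments. Its log2 differences were 1.01 (adjusted p = 0.0395) and 1.39 (adjusted p = 0.0104). Without P56 replicate 1 or 2 the cauda difference was 0.74 or 1.32 for Hsph1 (adjusted p = 0.213 and 0.0759) and 0.58 or 0.77 for Dnaja1 (adjusted p = 0.264 and 0.121), and the Hsph1 corpus difference was 0.74 or 0.73 (adjusted p = 0.204 and 0.295). Without the block Dnaja1 to the cauda (1.04, adjusted p = 0.13) and Hsph1 to the corpus (1.20, adjusted p = 0.121) did not pass.

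Against these, the cytosolic member Hspa2, known from the testis, was lower beyond the caput. It stood at 23.9, 21.8 and 17.7 CPM in the caput, 7.09, 8.0 and 6.04 CPM in the corpus and 16.5, 6.61 and 6.77 CPM in the cauda. The caput lay above both other segments, which overlapped. Hspa2 fell by 1.51 (SE 0.21, adjusted p = 0.000243) and 1.11 (SE 0.21, adjusted p = 0.00202) on the log2 scale. Without P56 replicate 1 its cauda difference was -0.88 (adjusted p = 0.0741). Hsp90ab1, the constitutive HSP90, did not pass the test: it was 1893, 1651 and 1721 CPM in the caput, 1458, 1538 and 1402 CPM in the corpus and 1421, 1863 and 1814 CPM in the cauda (log2 difference -0.23 and 0.11). The inducible Hsp90aa1 was 532, 367 and 439.8 CPM, 497, 960.1 and 788 CPM, and 402, 1001 and 719 CPM, with log2 differences of 0.67 (adjusted p = 0.153) and 0.71 (adjusted p = 0.138). Without the P42 cauda library it was called in both, at 0.76 (adjusted p = 0.0293) and 1.11 (adjusted p = 0.0113). Hspb1, the small HSP known as Hsp27, stood at 176, 68.7 and 69.3 CPM in the caput, 92.6, 82.4 and 56.1 CPM in the corpus and 74.7, 183 and 103 CPM in the cauda. Its segments overlapped (log2 difference -0.38 and 0.47), and without the P42 cauda library the cauda difference was 1.08 (adjusted p = 0.00494).

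**Figure D2:**
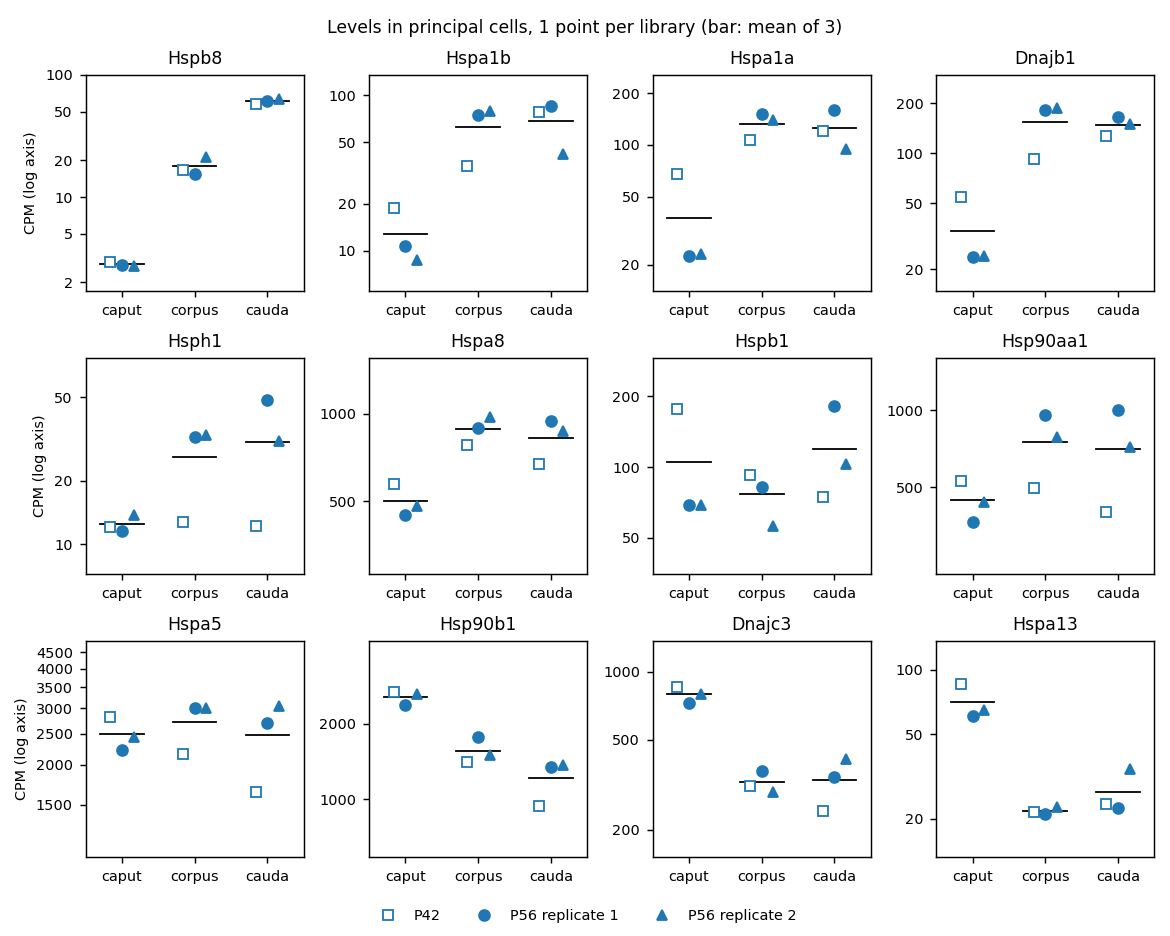
Levels of 12 members in principal cells, in CPM on a log axis, with 1 point per library (open squares P42, filled circles and triangles P56 replicates 1 and 2) and a bar at the mean of 3 libraries. Hspb8 climbs from 2.71 to 2.92 CPM in the caput to 58.2 to 63.0 CPM in the cauda, while Dnajc3 is highest in the caput at 728 to 855 CPM.

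The ER members split. Of 9, 1 was higher and 5 were lower in the corpus than in the caput (20.2% and 20.4% of all genes). In the cauda 1 was higher and 3 were lower (20.1% and 22.2%). Dnajc3, a co-chaperone of the ER that also holds back the stress kinase PERK, fell most among the more abundant. It was 855, 728 and 796 CPM in the caput, 314, 365 and 295 CPM in the corpus and 242, 343 and 411 CPM in the cauda. All caput libraries lay above all others, and it fell by 1.26 (SE 0.24, adjusted p = 0.00204) and 1.11 (SE 0.24, adjusted p = 0.00434). Hspa13, an HSP70 relative of the ER, was 85.9, 60.5 and 65.0 CPM in the caput, 21.4, 21.1 and 22.8 CPM in the corpus and 23.5, 22.4 and 34.2 CPM in the cauda. It fell by 1.65 (SE 0.21, adjusted p = 0.000143) and 1.22 (SE 0.21, adjusted p = 0.00112), also without overlap.

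Hsp90b1, the HSP90 of the ER lumen, was 2675, 2379 and 2617 CPM in the caput, 1411, 1765 and 1504 CPM in the corpus and 939.6, 1346 and 1372 CPM in the cauda. The caput libraries lay above the rest, and it fell by 0.69 (SE 0.24, adjusted p = 0.0404) and 0.93 (SE 0.24, adjusted p = 0.0105). Without the pool as a block neither Hsp90b1 difference passed (-0.63, adjusted p = 0.183, and -0.83, adjusted p = 0.0812), nor did they without P56 replicate 1 (-0.81 and -1.11, adjusted p = 0.132 and 0.0519) or 2 (-0.72 and -1.05, adjusted p = 0.18 and 0.0604). By contrast Hspa5, the HSP70 of the ER known as BiP, was 2829, 2226 and 2447 CPM in the caput, 2152, 3007 and 3001 CPM in the corpus and 1639.8, 2709 and 3058 CPM in the cauda. The segments overlapped, and the log2 differences of 0.11 and 0.08 did not pass. Hspa5, Hsp90b1 and Dnajc3 are the 3 members whose promoter stretches with an ER stress element are printed above. Its J protein partner Dnajb9 did not pass either (0.01 and 0.08), and Dnajb11 passed only to the corpus, where it fell by 0.51 (adjusted p = 0.0377). That call was lost without the block (adjusted p = 0.104) and without either P56 pool (-0.66 and -0.58, adjusted p = 0.0941 and 0.127).

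Dnajc10, an ER reductase, had its highest level in the corpus. It was 543, 354 and 391 CPM in the caput, 704, 586 and 541 CPM in the corpus and 319, 285 and 335 CPM in the cauda. Corpus and caput overlapped by 1 library (log2 difference 0.56, adjusted p = 0.0492), and it fell by 0.83 from corpus to cauda (adjusted p = 0.0155). Dnajc21, a factor of ribosome maturation, had the same shape, with 31.0, 27.6 and 39.1 CPM in the caput, 67.2, 71.5 and 52.8 CPM in the corpus and 40.4, 33.4 and 37.3 CPM in the cauda. It rose by 1.02 to the corpus (SE 0.16, adjusted p = 0.000698) and fell by 0.67 from there to the cauda (adjusted p = 0.0161). The calls of Dnajc10 were lost without either P56 pool (adjusted p from 0.0857 to 0.293), as was the fall of Dnajc21 to the cauda (-0.58 and -0.78, adjusted p = 0.213 and 0.0599). Without the block the corpus rise of Dnajc10 (adjusted p = 0.0576) and the fall of Dnajc21 to the cauda (adjusted p = 0.0575) were lost as well.

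Of the 9 mitochondrial members, 2 were higher and 2 lower in the corpus (20.2% and 20.4% of all genes). In the cauda none was higher and 3 were lower (20.1% and 22.2%). Dnajc15, of the inner membrane, fell by 0.77 (adjusted p = 0.00273) and 0.69 (adjusted p = 0.0049), and Dnajc30 by 0.44 (adjusted p = 0.0404) and 0.71 (adjusted p = 0.00521). Dnaja3 fell only to the cauda, by 0.71 (adjusted p = 0.00466). Without P56 replicate 1 none of these passed (-0.37 to -0.73, adjusted p from 0.0573 to 0.324), and without P56 replicate 2 Dnajc15 (adjusted p = 0.0539 and 0.0571) and Dnajc30 to the corpus (adjusted p = 0.0956) did not. Without the block Dnajc30 to the corpus did not pass either (adjusted p = 0.0948). The matrix chaperonin genes Hspd1 (-0.36 and -0.28) and Hspe1 (0.45 and 0.45) and the mitochondrial HSP70 Hspa9 (0.09 and 0.56) did not pass. Hspd1 and Hspe1 overlap by 96 bases where they start, on opposite strands, so only reads from that stretch could be split wrongly between them. Among the remaining J proteins the ribosome-bound Dnajc2 fell by 0.94 (adjusted p = 0.00295) and 0.88 (adjusted p = 0.00458), Dnajb14 of the ER membrane by 0.74 to the cauda (adjusted p = 0.00386), and Dnajc1 by 0.55 to the corpus (adjusted p = 0.0168). The calls of Dnajb14 (adjusted p = 0.133 and 0.0579) and Dnajc1 (adjusted p = 0.171 and 0.102) were lost without P56 replicate 1 or 2. Dnajc12 was 21.3, 15.9 and 17.7 CPM in the caput, 5.09, 7.77 and 6.48 CPM in the corpus and 7.38, 9.74 and 14.7 CPM in the cauda. It fell by 1.44 to the corpus (SE 0.26, adjusted p = 0.00157), and its cauda difference of -0.55 did not pass. Dnajc22 had 167 UMIs in caput principal cells, 0 in the corpus and 1 in the cauda. Set against a floor of 3 counts over the corpus principal cells, it was at least 62.7-fold lower there.

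Other members called from the caput were of several kinds. Higher in the corpus were the mitochondrial Dnajc11 (0.73), the endosomal Dnajc13 (0.66) and Hspb11 (0.58), and higher in the cauda were Dnajc9 (0.78) and Dnajc25 (0.48). The clathrin-uncoating Dnajc6 was also called in the corpus, with 6, 41 and 8 UMIs in principal cells of caput, corpus and cauda. It may have reached the test through the corpus, where it is high, so only its levels are given. They were 0.770 to 1.27 CPM in the corpus and 0.133 to 0.175 CPM in the caput. The calls of Dnajc13, Dnajc9 and Dnajc25 were lost without P56 replicate 1, those of Dnajc13 (adjusted p = 0.0972) and Dnajc25 (adjusted p = 0.218) also without P56 replicate 2, and that of Dnajc25 also without the block (adjusted p = 0.0505). Lower in both the corpus and the cauda were Dnaja4 (by 2.53 and 2.23) and the testis J protein Dnajb3 (by 1.21 and 3.38), both at under 10 CPM. The sperm panel in principal cells summed to 23.8, 61.7 and 166 CPM in the caput. It summed to 182, 131 and 134 CPM in the corpus and 81.7, 10.0 and 23.9 CPM in the cauda. The part of sperm RNA in the Dnajb3 differences was not tested. Dnajc24 was lower in the corpus (by 0.54) and Dnajc28 (by 0.68) and Dnajb12 (by 0.51) in the cauda. The 8 members with too few UMIs in principal cells to be tested were Hspa1l, Hspa12b, Hspb3, Hspb7, Dnajb7, Dnajb13, Dnajc5b and Dnajc5g.

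**Figure D3:**
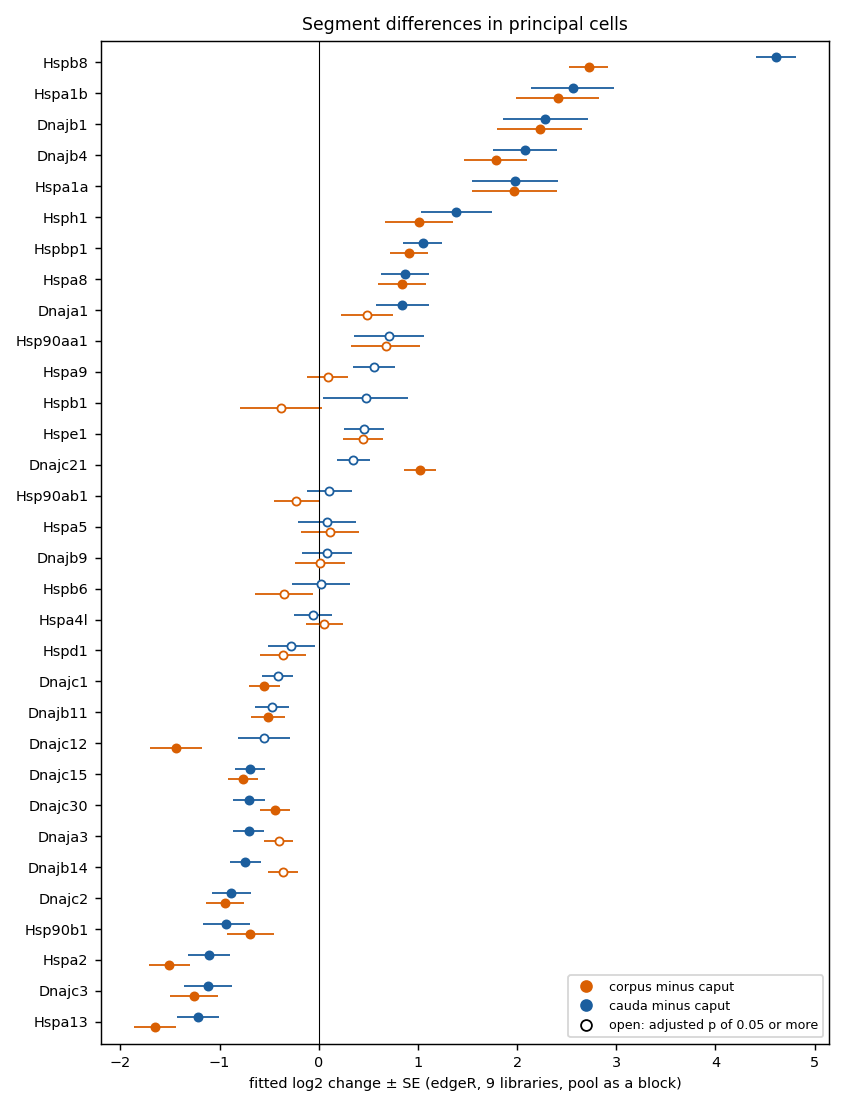
Fitted log2 differences ± SE between segments in principal cells for the named members (edgeR, 9 libraries), with orange points for corpus minus caput and blue points for cauda minus caput. Filled points passed an adjusted p of 0.05; Hspb8 lies farthest right at 2.72 and 4.61, and Hspa13 is at -1.65 and -1.22.

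Other measures moved along with these segment differences. The immediate early genes, fast genes sensitive to stress and dissociation such as the transcription factor Fos, summed in principal cells to 5848, 1557 and 1420 CPM in the caput, 4927, 6370.0 and 6384 CPM in the corpus and 7807, 7382 and 8204 CPM in the cauda. Of this list of 15 genes, 8 were called higher in the corpus and 12 were in the cauda (20.2% and 20.1% of all genes), and none was lower. Atf3 (2.76 and 3.87) and Fosb (2.64 and 2.88) were among them, and Klf6 rose by 2.55 to the cauda. The P42 caput library, where Dnajb1, Dnajb4, Hspa1a and Hspa1b were highest of the caput, was also the caput library with the highest sum. RNA of the mitochondrial genome made up 51741 to 60428 CPM in the caput, 161779 to 229192 CPM in the corpus and 147633 to 162786 CPM in the cauda. The part of either measure in the members' differences was not tested.

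The other proteostasis genes of the lists also split in principal cells. Of all genes, 20.2% were higher and 20.4% lower in the corpus, and 20.1% and 22.2% in the cauda. Of 22 heat shock factors and co-chaperones tested, 4 were higher and 2 lower in the corpus and the same numbers in the cauda. Bag2, an HSP70 co-chaperone, rose by 1.97 and 2.38 and the small HSP relative Cryab by 1.25 and 2.01, while Bag3, the known partner of Hspb8, fell by 1.53 and 0.66. Of 18 ER folding and unfolded protein response genes, 1 was higher and 2 lower in the corpus, and 1 was higher and 3 lower in the cauda. Canx, the lectin calnexin, rose by 0.94 and 0.50, and Creld2 fell by 1.25 and 1.03 and Sdf2l1 by 0.73 and 0.79. None of the 8 genes of the cytosolic chaperonin ring was called in either by edgeR, where 2 and 1 had an unadjusted p under 0.05, and DESeq2 called 1 in each. Of 6 mitochondrial proteostasis genes, Lonp1 rose (0.50) and Clpp fell by 0.68 in the corpus.

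Whether the members differed between segments in other cell types was tested in the same way in 6 types. Of 61 members tested, 22 were called in at least 1 type and contrast, beside 32.4% of all genes. Without the P42 cauda library 36 were called (47.4% of all genes), without P42 35 (48.6%), and without P56 replicate 1 or 2 only 5 (14.7%) and 6 (16.2%). Of 59 calls of members over types and contrasts, 6 stood without either P56 pool. These were Hspb8 from caput to corpus and cauda in basal cells and to the cauda in fibroblasts and macrophages and monocytes, Dnajb1 to the cauda in fibroblasts and Dnajb4 to the cauda in basal cells. Among those called higher toward the cauda were Hspb8 and the cytosolic stress members Dnajb1, Hspa1b and Dnajb4, and among those called lower were Dnajc3 and Hspa13 of the ER. Hspb8 rose from caput to cauda in basal (1.67, adjusted p = 1.38e-05), clear/narrow (1.42, adjusted p = 0.00143), fibroblast (1.69, adjusted p = 0.00402), macrophage/monocyte (2.85, adjusted p = 0.00218) and endothelial cells (2.77, adjusted p = 0.033). In basal cells Hspb8 was 41.4 CPM on average in the caput (33.1 to 47.7), 93.0 CPM in the corpus (87.9 to 102) and 110.1 CPM in the cauda (107 to 116), so the caput did not overlap with the others. Basal cells of the caput thus held 1474% of the Hspb8 level of caput principal cells.

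Dnajb1 rose from caput to cauda in basal (1.78, adjusted p = 0.00187), fibroblast (2.35, adjusted p = 0.000749), endothelial (1.89, adjusted p = 0.046) and halo/T cells (1.99, adjusted p = 0.00648). Hspa1b rose in basal (1.07), endothelial (2.35), fibroblast (2.44) and macrophage/monocyte cells (1.70). Dnajb4 rose in basal (1.66) and fibroblast cells (1.30), and Dnaja1 in basal (0.92), clear/narrow (0.68), fibroblast (0.98) and macrophage/monocyte cells (0.87). Dnajc3 fell from caput to corpus in basal (by 0.78, adjusted p = 0.0145), clear/narrow (by 0.75, adjusted p = 0.0156), endothelial (by 1.0, adjusted p = 0.0322), halo/T (by 1.20, adjusted p = 0.0108) and macrophage/monocyte cells (by 1.12, adjusted p = 0.00362). Hspa13 fell in basal (by 0.84), clear/narrow (by 0.76) and macrophage/monocyte cells (by 1.46). In halo/T cells Dnajc3 was 88.5%, 100% and 99.9% and Hsp90b1 was 88.7%, 88.7% and 81.2% of the principal level in caput, corpus and cauda, where RNA of the principal panel stood at 87.8%, 68.3% and 68.0%. The part of free principal cell RNA in these differences was not tested. For Hspb8, macrophages and monocytes held 225%, 72.8% and 82.2% and clear/narrow cells 734%, 136% and 78.1% of the principal level in caput, corpus and cauda.

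Over all cells of a segment but erythrocytes, fewer cells of a type and less RNA per cell cannot be told apart. From caput to cauda 10 members were higher and 12 lower (25.5% of all genes called), from caput to corpus 6 and 7 (20.1%), and from corpus to cauda 2 and 2 (9.23%). Without the P42 cauda library 35, 25 and 17 members were called (38.4%, 36.4% and 21.7% of all genes), without P42 43, 32 and 24 (48.4%, 42.8% and 30.5%), without P56 replicate 1 only 2, 0 and 0 (3.49%, 2.63% and 0.0682%), and without P56 replicate 2 only 2, 2 and 0 (6.90%, 4.87% and 0.225%). With the TMM factors set to 1, 6 were higher and 18 lower from caput to cauda (1434 and 3641 of all genes), 4 and 10 to the corpus (1574 and 2219) and 1 and 3 from corpus to cauda (395 and 1187). Hspb8 rose by 1.31 to the corpus and 2.80 to the cauda, from 17.7, 7.30 and 12.7 CPM in the caput to 71.1, 66.9 and 69.7 CPM in the cauda. Dnajb1 rose by 1.91 and 2.28 and Hspa1b by 1.88 and 2.20. Hspa13 fell by 1.21 and 0.77 and Dnajc3 by 0.97 and 0.80. Both Dnajc3 calls (adjusted p = 0.101 and 0.157) and the Hspa1b call to the corpus (adjusted p = 0.0701) were lost without the block. Those of Dnajb1, Hspa1b and Dnajc3, that of Hspb8 to the corpus and that of Hspa13 to the cauda were lost without either P56 pool, and that of Hspa13 to the corpus without P56 replicate 1 (adjusted p = 0.109). Of the 6 testis J proteins, 4 were called lower in the cauda than in the caput, where 2828 of 19584 genes were called lower. Dnajb3 was among them (by 3.60, adjusted p = 0.0079). Dnajb7, Dnajc5b and Dnajc5g were as well, but they may have reached the test only through the segments where they are higher. Their calls are therefore not read as a difference. Dnajc5b stood at 0.345, 1.17 and 4.38 CPM in the caput and 0.0531, 0 and 0 CPM in the cauda, too few UMIs for a fold. The calls of Dnajc5b (adjusted p = 0.113 and 0.0783), Dnajb7 (adjusted p = 0.307 and 0.305) and Dnajc5g (adjusted p = 0.122 and 0.156) were lost without P56 replicate 1 or 2. The summed sperm panel was 144, 226 and 1178 CPM in the caput and 368, 16.2 and 40.9 CPM in the cauda, and its part was not tested.

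The cell types were then compared with each other, each with the mean of the others and the library as a block. A member was called with an adjusted p under 0.05 and a log2 difference of at least 1, and levels are means ± SD over libraries with at least 10 cells of the type. Of 66 members tested, 29 were called higher in at least 1 type (49.3% of all genes). Among these, 5 (Dnajb7, Dnajb13, Dnajc5b, Dnajc5g and Hspa12b, 4 of them called in sperm) had too few UMIs to be tested in principal cells, so they reached the test through the types where they are high and only their levels are given. Dnajb3, Dnajb8, Hspb2 and Hspb9 held at most 3.87, 0.644, 0.995 and 5.06 CPM in principal cells pooled by segment. They may have reached the test in the same way, so only their levels are given as well. Sperm held 14 (13.3% of all genes), and ciliated cells, seen in the caput only, held 8 (7.24%). Fibroblasts held 4 (9.55%), basal cells 3 (5.18%), endothelial (10.4%), macrophage/monocyte (8.91%) and myoid cells (4.39%) 2 each, and clear/narrow (6.51%) and principal cells (3.50%) 1 each. None was called in halo/T cells by edgeR (3.76%), where 4 had an unadjusted p under 0.05 and DESeq2 called 1.

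In sperm, the testis J proteins other than Dnajb13 averaged above their means in other types. Dnajb8 was 111 ± 111 CPM (n = 6 libraries) and at most 2.15 CPM on average in any other type. It ranged from 32.8 to 326 CPM over these libraries. Dnajc5g stood at 17.1 ± 20.2 CPM, Dnajb7 at 30.4 ± 33.6 CPM and Dnajc5b, a cysteine string protein, at 44.6 ± 42.3 CPM, each with 0 in at least 1 of the 6 libraries. Dnajb3 was 267 ± 123 CPM. Hspb9, a testis small HSP, was 555 ± 426 CPM. The HSP110 relative Hspa4l, needed for male fertility, was higher in sperm by a log2 difference of 3.16 (adjusted p = 1.02e-31). Hspa2, the HSP70 of spermatogenesis, was 2.27 higher there. Hspa4l and Hspa2 were each called higher in 2 types, so neither call is particular to sperm. In ciliated cells (n = 3 libraries) Dnajb13, a radial spoke protein of flagella and cilia, was 44.5 ± 17.3 CPM, and it was 34.4 ± 33.1 CPM in sperm. Hsph1 was 133 ± 16.1 CPM in ciliated cells, against at most 33.2 CPM on average in other types (2.69, adjusted p = 1.56e-13), and Hsp90aa1 was 2631 ± 768 CPM (1.67, adjusted p = 1.26e-12). Dnajc22 was called in ciliated cells by edgeR but not by DESeq2 (adjusted p = 0.0684). It held at most 4.49 CPM in principal cells pooled by segment. It may have reached the test through the ciliated cells, so its difference is not given.

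**Figure D4:**
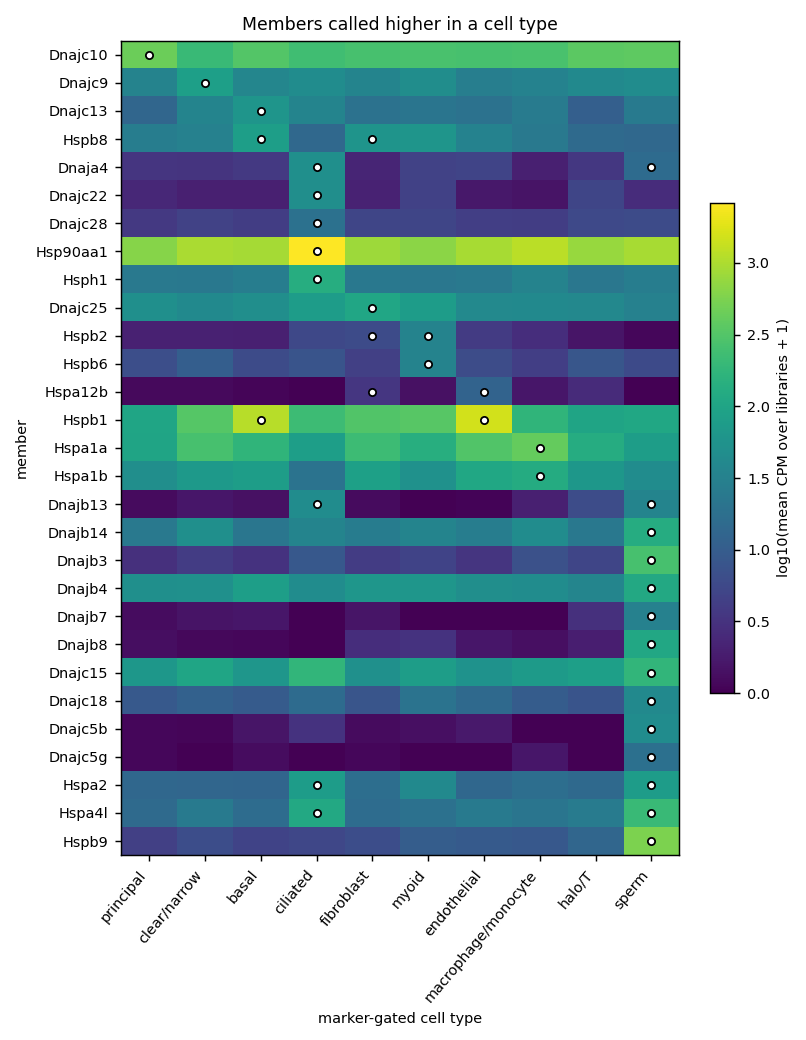
Mean CPM over libraries, as log10(CPM + 1), of the 29 members called higher in at least 1 of 10 marker-gated cell types; white dots mark the calls. Dnajb8, Hspb9 and Dnajb3 stand out in sperm at 111, 555 and 267 CPM, and Hspb1 in endothelial and basal cells at 1527 and 1137 CPM.

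Hspb1 was 1137 ± 294 CPM in basal cells (n = 9, log2 difference 2.29, adjusted p = 1.42e-24) and 1527 ± 904 CPM in endothelial cells (n = 8, 2.51, adjusted p = 1.05e-24), against 101 ± 46.7 CPM in principal cells (n = 9). The basal mean lay within 1 SD of the endothelial mean. Hspb8 was 81.5 ± 31.5 CPM in basal cells (1.60, adjusted p = 1.94e-10) and 57.8 ± 26.1 CPM in fibroblasts (1.14, adjusted p = 3.1e-05, and 0.85 without the P42 corpus library), and the endosomal J protein Dnajc13 was 60.5 ± 31.1 CPM in basal cells (1.57). In myoid cells Hspb2 and Hspb6, small HSPs of muscle, were 32.6 ± 29.4 and 33.2 ± 62.2 CPM (n = 6), and Hspb6 was 2.21 higher. Hspb6 ranged from 0 to 159 CPM there, and without the P42 cauda library its difference was 0.81 (adjusted p = 0.315). Hspb2 overlaps Cryab, so reads of the pair may have been split. Hspb7, another muscle member, averaged 13.4 ± 18.7 CPM in myoid cells and at most 2.63 CPM elsewhere.

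Hspa1a was 406 ± 234 CPM in macrophages and monocytes (1.46, adjusted p = 3.22e-14), ranging from 96.5 to 782 CPM over 9 libraries, and Hspa1b was 126 ± 83.2 CPM (1.13, adjusted p = 8.83e-08, and 0.94 without the P42 corpus library). Other types were near or above them in single segments. In the caput Hspa1a was 720% of the principal level in macrophages and monocytes and 735% in clear/narrow cells, and Hspa1b was 429%, 422% and 414% in macrophages and monocytes, clear/narrow and basal cells. In the cauda Hspa1b was 246% in macrophages and monocytes and 329% in endothelial cells. Hspa12b, the HSP70 relative of blood vessel lining, was 11.1 ± 9.56 CPM in endothelial cells and at most 2.46 CPM on average elsewhere, Dnajc25 was 1.30 higher in fibroblasts, and Dnajc9, a histone chaperone, 1.10 higher in clear/narrow cells. Dnajc10 was the member called in principal cells, at 451 ± 146 CPM and a log2 difference of 1.01, at the limit of the call (adjusted p = 1.96e-16, and 0.98 without the block). The housekeeping members Hspa5 and Hspa8 were high in every type. Hspa5 ran from 2563 ± 484 CPM in principal cells down to 1566 ± 279 CPM in endothelial cells, and Hspa8 from 1272 ± 350.0 CPM in macrophages and monocytes down to 606 ± 198 CPM in sperm. Neighbours in either order differed by less than the larger of their SDs.

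Age was compared as P56 minus P42 within each segment. P42 had 1 library per segment, which was assumed to vary like the P56 libraries, and age cannot be told apart from the pool and library. In principal cells of the caput no member was higher and 1 was lower (0.880% of all genes called, 0.415% higher and 0.465% lower). In the corpus 10 were higher and none lower (3.24%, 1.83% and 1.41%), and in the cauda 32 were higher and none lower (17.5%, 12.1% and 5.38%). The members' median log2 difference in the cauda was 0.80, beside 0.11 over all genes, and in the corpus 0.39, beside 0.05. The split depended on the scaling. With the TMM factors set to 1 the median of all genes moved to -0.33, -0.44 and -0.56 in caput, corpus and cauda, and 0 members were higher and 6 lower in the caput (93 and 972 of all genes), 7 and 4 in the corpus (113 and 2094) and 8 and 6 in the cauda (274 and 3711). DESeq2 gave 0 and 1 (119 and 68), 11 and 0 (296 and 154), and 25 and 1 (1359 and 599). The P42 cauda library behind the last contrast is the one with fibroblast RNA in its principal cells, where the gate also allowed more of it.

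Dnajb1 was the member lower in the caput at P56, by 0.86 (SE 0.16, adjusted p = 0.04), with 54.6 CPM at P42 against 23.5 and 23.9 CPM at P56. The call was lost without either caput P56 library (-0.90 and -0.82, adjusted p = 0.184 and 0.203). In the corpus it was 1.50 higher (SE 0.16, adjusted p = 0.00247) and in the cauda 1.05 higher (SE 0.16, adjusted p = 0.00288). Hsph1 was the called member with the largest difference in both distal segments, 1.86 (SE 0.31, adjusted p = 0.0175) in the corpus and 2.44 (SE 0.38, adjusted p = 0.00295) in the cauda, with 12.8 and 12.2 CPM at P42 against 31.1 to 48.3 CPM at P56. Dnaja1 was 1.69 and 1.73 higher, Dnajb4 1.33 and 1.51 higher and Hsp90aa1 1.32 and 1.83 higher, in corpus and cauda. Of the ER members Hspa5 was higher in both (0.99, adjusted p = 0.0243, and 1.53, adjusted p = 0.00107), as was Dnajb9 (1.12 and 1.34), while Hsp90b1 (1.26) and Dnajc3 (1.35) were called in the cauda. Hspb1 was 1.67 higher in the cauda (SE 0.38, adjusted p = 0.0141), with 74.7 CPM at P42 and 183 and 103 CPM at P56. Hspa1a (-1.22, 0.94 and 0.83) and Hspa1b (-0.60, 1.63 and 0.45) did not pass in any segment.

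Whether the age difference itself differed between segments was tested as an interaction in the same fit, a test added after the values were seen. Of 69 members, 17 differed between cauda and caput (7.94% of all genes) and 1, Dnajb1, between corpus and caput (0.230%). With the pool as a block in that fit, 28 (12.3% of all genes) and 6 (1.10%) differed, among them the same 17 and the same 1, and 3 differed between cauda and corpus (3.49%). Dnajb1 was lower at P56 in the caput and higher at P56 in both distal segments.

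**Figure D5:**
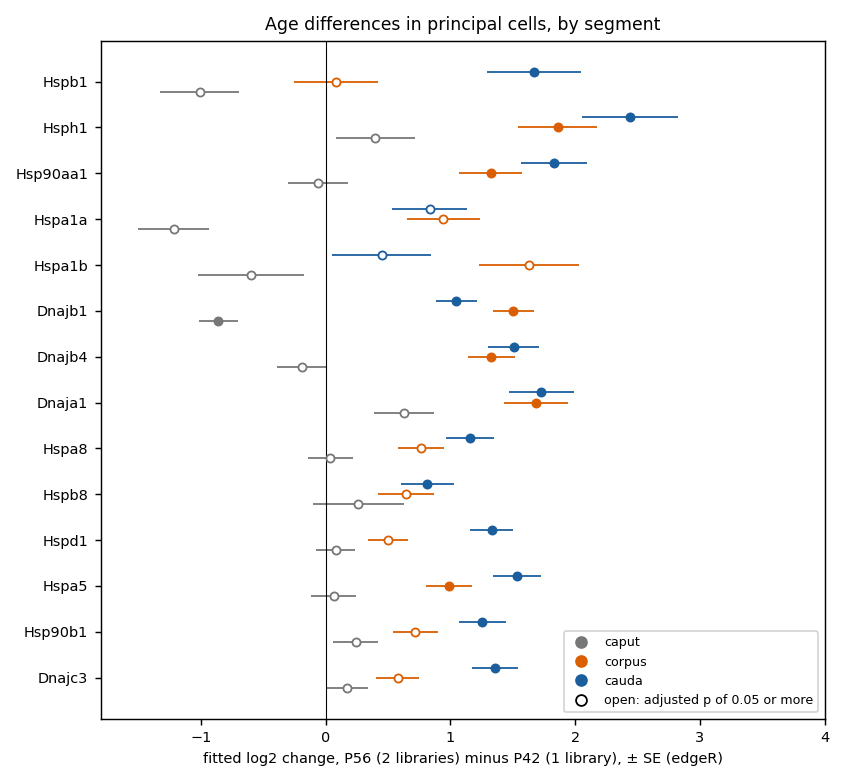
Fitted log2 differences ± SE between P56 (2 libraries) and P42 (1 library) in principal cells for 14 members, with caput in grey, corpus in orange and cauda in blue; filled points passed an adjusted p of 0.05. Dnajb1 lies at -0.86 in the caput and at 1.50 and 1.05 in the corpus and cauda, and Hsph1 reaches 2.44 in the cauda.

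The immediate early genes moved with age as well. In principal cells 11 of them were lower at P56 in the caput with none higher (0.465% and 0.415% of all genes). In the corpus 5 were higher and 1 lower (1.83% and 1.41%), and in the cauda 4 were higher and 2 lower (12.1% and 5.38%). Their part in the age differences of the members was not tested. The ER folding list was called higher for 8 genes in the corpus (1.83% of all genes) and 11 of 18 in the cauda (12.1%), and the chaperonin ring for 6 of 8 in the cauda. Over all cells, 1 member was higher and 2 lower in the caput (4.02% of all genes), 17 and 1 in the corpus (15.6%), and 36 and 10 in the cauda (43.0%). Hspa1a fell by 2.16 and Dnajb1 by 1.28 in the caput. In the cauda Hspa5 (1.48), Hspb1 (1.55), Dnajc10 (1.61) and Dnajc12 (1.65) were higher, and Hspb9 fell by 3.46, from 13.0 CPM at P42 to 0.503 and 0.881 CPM at P56. With the TMM factors set to 1 the members split into 0 and 6, 2 and 11, and 8 and 25, and all genes into 123 and 1823, 139 and 4997, and 1355 and 8928. In the P42 cauda library the summed sperm panel was 368 CPM and the fibroblast panel 45080 CPM, against 16.2 and 40.9 CPM and 1610.0 and 1046 CPM at P56.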

How the data were processed

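The authors digested pooled epididymides into single cells and made GEXSCOPE libraries, trimmed the reads with fastp, handled barcodes with UMI-tools, aligned to GRCm38.p6 with STAR 2.7.3a (versions per the submitters' processing notes where these give one) and counted exon reads with featureCounts. The deposited values were raw UMI counts of 32195 genes in 44869 cells from 9 libraries, not normalized. Here, cells with 300 to 4000 genes, at most 20000 UMIs and at most 50% mitochondrial UMIs were kept (42087). They were gated on marker panels with at least 3 distinct markers, and counts were summed per library and cell type with at least 10 cells.

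The sums were tested with edgeR 4.0.16 (filterByExpr, TMM, glmQLFit and glmQLFTest) and an adjusted p under 0.05 over all genes. DESeq2 1.42.0 was an alternative, as were TMM factors of 1, no filter, no block and a log2 difference of at least 1. Others were cells under 20% mitochondrial UMIs, types from Leiden clusters and mitochondrial UMIs left out of the total. Each library was left out in turn between cell types. Between segments each pool or the P42 cauda library was left out, and by age each P56 library. Segments of a pool share mice, so the pool was the block between segments, as the library was between cell types. A pool lies within 1 age, so age contrasts had no block, and the difference of the age contrast between segments was fitted without and with it. Deviations from segment means correlated at 0.0647 to 0.437 within pools and at -0.426 to 0.278 between pools. The p-values between segments rest on the spread left once differences between pools were taken out. Those between cell types rest on the spread left once differences between libraries were taken out. In the age contrasts without a block P42 had 1 library per segment, so the spread came from the P56 libraries alone. All libraries came from these 3 pools. The number of UMIs limits the precision of low members, and the floor of 3 counts covers counting error only. The tests were checked on simulated counts with known changes.

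Named genes were up to 8 called members each way per segment contrast with the same direction in every pool and at least 10 CPM, up to 4 per age contrast and cell type, a fixed list of well known members, and 3 per pathway list; others are named where a count was small, after their values were seen. The members and lists were chosen with earlier results of these data known. The values of 1 member are not reported here. Gene positions and promoters came from RefSeq. Analyses ran in Python 3.11.15 and R 4.3.3.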

Additional observations from a re-analysis of the deposited data

Results flagged for a closer look

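The age difference (P56 minus P42) in principal cells was compared between segments by the interaction in the same edgeR fit, a test added after the values were seen. Of 69 members, 17 differed between cauda and caput (7.94% of all genes), 1 between corpus and caput (0.230%), and none between cauda and corpus (0.689%), where 18 had an unadjusted p under 0.05 and no other tool was run. With the pool as a block, 28 (12.3%), 6 (1.10%) and 3 (3.49%) differed, and the members named below were called again.

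Without the block, Dnajb1 was the member whose age difference departed from the caput in both distal segments, by a log2 value of 2.37 in the corpus (adjusted p = 0.00336) and 1.91 in the cauda (adjusted p = 0.00304). With the block, Dnajb4, Dnajb9, Hsp90aa1 and Hspa1a did so too. In the cauda against the caput Dnajb4 differed by 1.70 (adjusted p = 0.00988), Hsp90aa1 by 1.89 (adjusted p = 0.0138), Hspb1 by 2.68 (adjusted p = 0.0142) and Hsph1 by 2.04 (adjusted p = 0.0407). These rest on 1 P42 library per segment. In principal cells of the caput 11 of 15 immediate early genes were lower at P56 (0.465% of all genes). In the cauda 4 of these genes were higher and 2 lower (12.1% and 5.38%). Their part was not tested.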

How the results depend on the processing

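No called value of a named member changed sign under the alternatives run. In principal cells, the members called numbered 26 from caput to cauda, 30 from caput to corpus and 10 from corpus to cauda. With a log2 difference of at least 1 they were 13, 15 and 5. From corpus to cauda they were 5 without the replicate block and 3 with cell types from clusters, and 22 without the P42 cauda library, an alternative chosen after the data were seen. Leaving out 1 pool gave 11 to 39, 13 to 43 and 1 to 24. Without the block 24 calls of named members in all comparisons were lost, among them both of Hsp90b1.

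Over all cells, the counts were 22, 13 and 4. Without the block they were 14 from caput to cauda and 7 to the corpus, with a log2 difference of at least 1 they were 12 from caput to cauda, and DESeq2 called 9 from corpus to cauda. Without the P42 cauda library they were 35, 25 and 17, and leaving out 1 pool gave 2 to 43, 0 to 32 and 0 to 24. In other cell types the 22 members became 13 with a log2 difference of at least 1, 36 without the P42 cauda library and 5 to 35 with 1 pool left out.

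By age in principal cells, the 1 member in the caput became 6 with TMM factors of 1, 2 with types from clusters, and 0 without the filter or with a log2 difference of at least 1. The 32 in the cauda became 14 with TMM factors of 1 and 17 with a log2 difference of at least 1, where the 10 in the corpus became 6. Leaving out 1 P56 library gave 0, 8 to 9 and 30 in caput, corpus and cauda. Over all cells, the 3 in the caput became 10 by DESeq2, 6 with TMM factors of 1 and 11 without the filter, and a log2 difference of at least 1 gave 26 of 46 in the cauda and 6 of 18 in the corpus. Leaving out 1 P56 library gave 2 to 9, 5 to 7 and 34 to 41 in caput, corpus and cauda. Leaving out the P42 pool allows no age contrast. Between cell types the 29 members became 55 with no minimum difference and were 28 to 33 with 1 library left out. Where the share of all genes is not given above for the same setting, the counts in this section cannot be set against all genes. With mitochondrial UMIs left out of the total, 45 mean levels of members per segment rose by more than 1 SD and 99 did not. The causes were not tested. Depth limits members with few UMIs, as 8 of 75 were not tested in principal cells.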
